A study of Mus musculus with 8 samples.

Results

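A set of 10 genes that the ERK kinase pathway switches on were followed in mouse bone marrow hematopoietic stem cells (HSCs) with mutant or normal Nras. They were listed by name, with earlier results of these data known, as genes of ERK negative feedback and of ETS factor output, and comprise Dusp4, Dusp5, Dusp6, Spry1, Spry2, Spry4, Spred1, Spred2, Etv4 and Etv5. Of these 10 genes, 9 had at least 1 probe on the array, 16 probes in all, and Dusp5 is not analysed here. The array carried 41174 non-control probes for 27600 gene names, of which 14959 genes could be tested, among them 5 of the 10. Total RNA of HSCs from mice of strain B6 was measured on 8 Agilent 1-colour arrays: 3 from NrasG12D/G12D mice (both Nras alleles mutant), 3 from NrasG12D/+ mice (1 mutant allele beside 1 normal one) and 2 from Nras+/+ mice (no mutant allele). The age of the mice, the way in which the mutant allele was switched on, the sort used for the HSCs and whether samples came from separate animals are not stated in the labels. The p-values therefore reflect the spread among these 8 samples alone, which may be technical.

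Nras is a small GTPase that, when bound to GTP, starts the Raf, MEK and ERK kinase cascade, and the G12D change keeps it in that bound state. ERK activity is held in check by genes that it induces itself: the Dusp phosphatases remove phosphate from ERK, and the Sprouty (Spry) and Spred proteins act further up, between receptor, Ras and Raf. Etv4 and Etv5 are ETS family transcription factors that ERK signalling induces in many tissues, so their transcripts, with those of Dusp6 and the Sprouty genes, are often read as a measure of pathway output. The question addressed was whether mutant Nras raises these transcripts in HSCs.

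The array probes that carry the results are 60 bases long, and the first 30 bases of each are shown because each tested gene rests on a single one of them, and because the pair of Etv5 probes gave different signals. They are written 5′ to 3′, with no part marked by capitals.
Dusp6 probe: catttggtggatgcaacaggttgagaggaa
Spry1 probe: agctgagtatttccaacccttcctgtgttt
Spry2 probe 1: ccccccttttaacacatatgcaaccaacta
Etv4 probe: tggaggcaggccaaatctaaaggcagtagc
Etv5 probe 1: tgttcttggctgttcctaaagcttgccctt
Etv5 probe 2: atgtactacacacatgtcatatagtacata

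The files place the whole Dusp6 probe at chr10:98697039-98697098 (plus strand), the Spry1 probe at chr3:37835821-37835880 (plus strand) and the Etv4 probe at chr11:101586219-101586278 (minus strand). Spry2 probe 1 lies at chr14:104778283-104778342, Etv5 probe 1 at chr16:22298589-22298648 and Etv5 probe 2 at chr16:22297560-22297619, all on the minus strand. The files state no genome build. All 16 probes lie on the chromosome of their gene in the RefSeq table of GRCm38.p6, but 0 of 16 lie inside the GRCm38.p6 span of that gene, so the coordinates are of another build and exon or UTR positions were not assigned. Of the 16 probes, 12 were designed to a RefSeq mRNA and 4 to a cDNA clone or expressed sequence tag.

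Most probes of these genes were not flagged well above background in these HSCs, as was the case for most probes of the array. A probe was called well above background where the scanner software flagged it so. Of the 16 probes 3, those of Dusp6, Spry1 and Etv4, reached this on all 8 arrays, beside 6576 of all 41174 probes. A further 7 of the 16 reached it on no array and 4 on a single array. Dusp4, a nuclear ERK phosphatase, Spry4, a Sprouty protein, and Spred2, a membrane-bound inhibitor of Ras signalling, had no probe well above background on any array. Scaled signals (the processed spot intensity after scaling between arrays) stayed between 1.71 and 8.39 for the Dusp4 probes, 1.19 and 4.77 for the Spry4 probes and 1.20 and 4.96 for the Spred2 probes. Between 3 and 6 of the 16 probes were well above background on each array: 5, 5 and 5 on the NrasG12D/G12D arrays, 6, 5 and 3 on the NrasG12D/+ arrays, and 4 and 3 on the Nras+/+ arrays, in order of replicate number. Over all probes of the array that share was 25.7% to 30.1% on the NrasG12D/G12D arrays, 28.3% to 42.0% on the NrasG12D/+ arrays, and 30.6% and 35.8% on the Nras+/+ arrays.

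**Figure D1:**
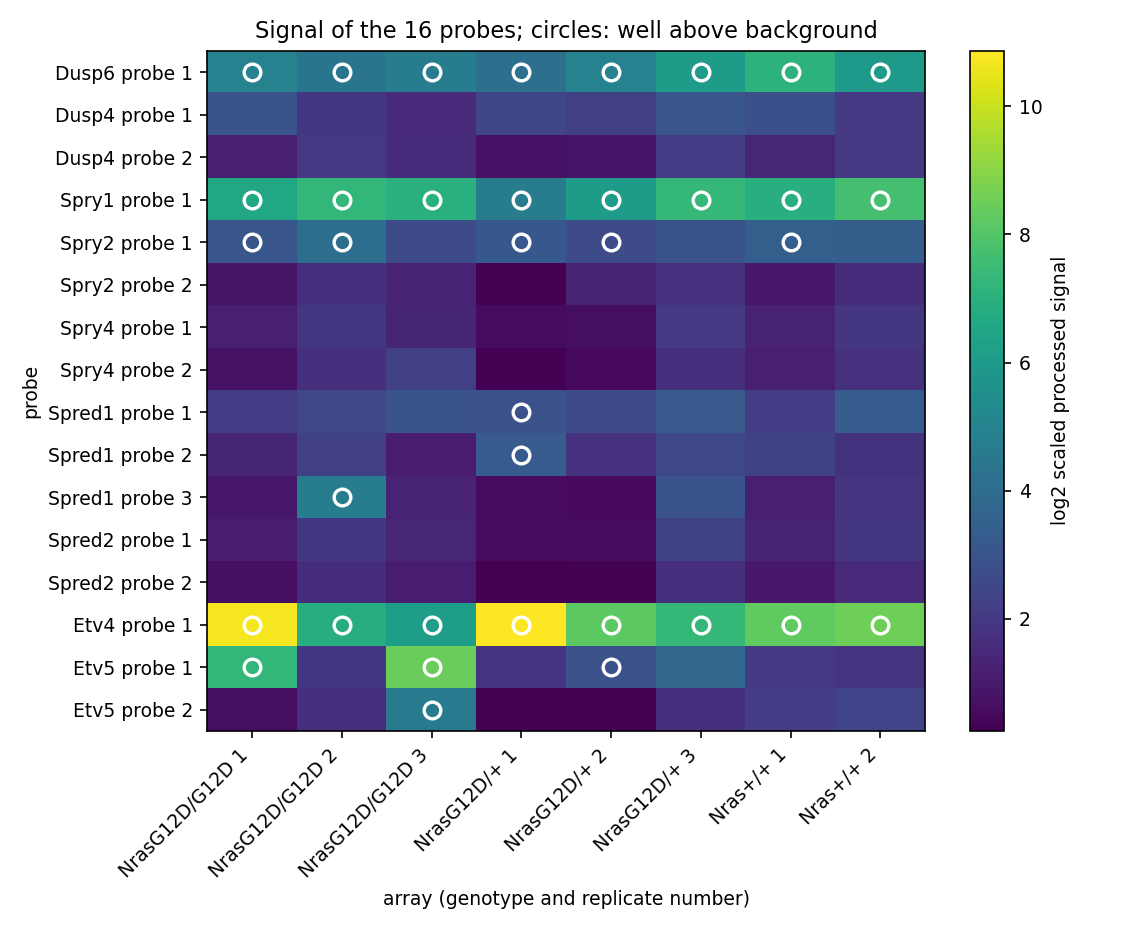
Log2 scaled signal (colour) of the 16 probes (rows) on the 8 arrays (columns, named by genotype and replicate number), with a white circle where the probe was well above background. The rows of Dusp6, Spry1 and Etv4 have a circle on all 8 arrays, and 7 rows have none.

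The arrays differed in overall brightness and were run on 2 slides. The median processed signal was 3.09 to 6.75 per array, no spot was saturated, and the mean correlation of an array with the others was 0.63 to 0.70 over 5719 genes. Slide 1 held replicates 1 and 2 of NrasG12D/+ and the 2 Nras+/+ arrays. Slide 2 held the 3 NrasG12D/G12D arrays and the remaining NrasG12D/+ array, replicate 3. NrasG12D/G12D and Nras+/+ thus share no slide, and slide and genotype cannot be told apart within that pair. Of the HSC markers, Slamf1, Ly6a and Fgd5 were among those with a probe well above background on all 8 arrays, and Meis1 reached it on 7, while Kit, Mecom, Hlf and Hoxb5 reached it on 1 array and Procr, Tek and Gata2 on none. In bulk samples, fewer cells of a type and less RNA per cell cannot be told apart.

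None of the 5 tested genes passed the threshold (adjusted p under 0.05) in any of the 3 comparisons, where the share of all 14959 genes called was also 0% in each. Without adjustment, 978 genes (6.54%) had p under 0.05 in NrasG12D/G12D against Nras+/+, 713 (4.77%) in NrasG12D/+ against Nras+/+ and 889 (5.94%) between the mutant genotypes. Of the 5 genes, Dusp6 (lower mean) and Etv5 (higher mean) were among the 978, and none was among the 713 or the 889. Etv5 met the detection filter for testing only with the NrasG12D/G12D arrays counted. The median log2 change of the 5 genes was −0.37 in NrasG12D/G12D against Nras+/+, beside −0.44 over all genes tested, and −0.48 in NrasG12D/+ against Nras+/+, beside −0.25. It was 0.35 between NrasG12D/G12D and NrasG12D/+, beside −0.20 over all genes. The comparisons share arrays, so their values are not independent of each other.

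**Figure D2:**
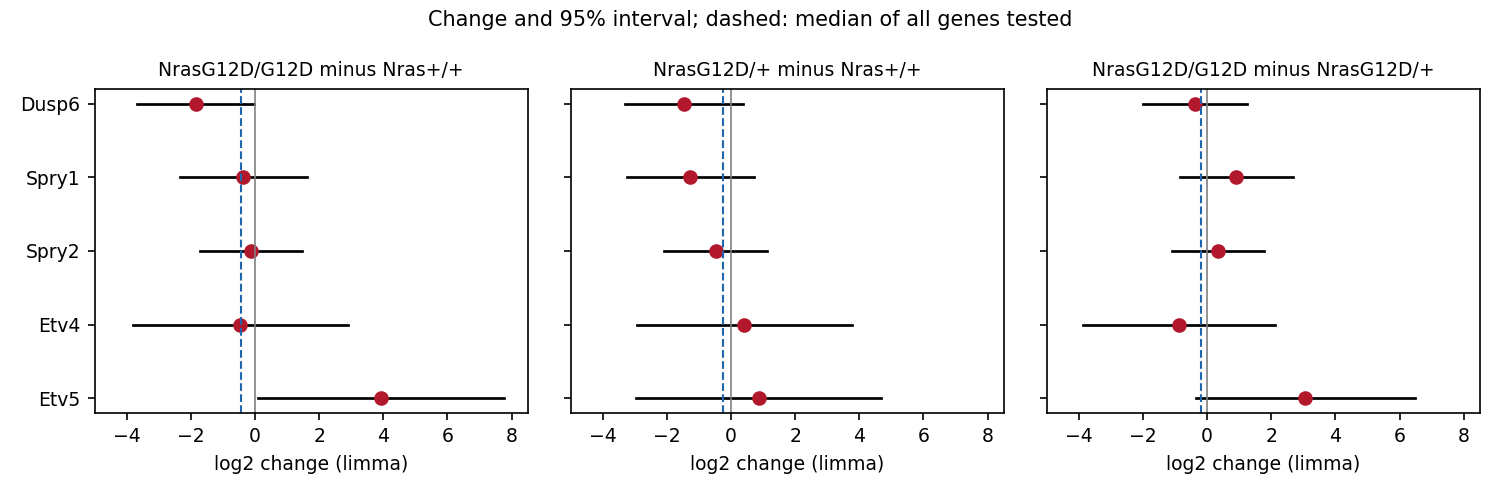
Log2 change (point) with its 95% interval (line) of the 5 tested genes in the 3 comparisons, with a dashed line at the median of all genes tested and a grey line at 0. In NrasG12D/G12D against Nras+/+ the interval of Dusp6 ends at −0.02 and that of Etv5 begins at 0.10, while the other 3 intervals include 0.

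Dusp6, the cytoplasmic phosphatase specific for ERK and the best known transcript of its feedback, had no higher mean in either mutant genotype. Its scaled signal was 31.0, 20.9 and 27.2 on the NrasG12D/G12D arrays, 18.2, 31.2 and 68.1 on the NrasG12D/+ arrays, and 139 and 62.8 on the Nras+/+ arrays. All 3 NrasG12D/G12D arrays lay below both Nras+/+ arrays, as did NrasG12D/+ replicates 1 and 2, whereas NrasG12D/+ replicate 3 lay between the Nras+/+ arrays. Such a lower, non-overlapping pattern in NrasG12D/G12D was shown by 3410 of all genes tested (22.8%). Before scaling, the processed signals were 44.4, 15.8 and 25.6 in NrasG12D/G12D, against 137 and 37.2 in Nras+/+, and these overlapped.

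On the log2 scale Dusp6 averaged 4.70 ± 0.29 in NrasG12D/G12D (SD, n = 3), 5.08 ± 0.96 in NrasG12D/+ (SD, n = 3) and 6.55 ± 0.81 in Nras+/+ (SD, n = 2). The change in NrasG12D/G12D against Nras+/+ was −1.85 (SE 0.80, 95% interval −3.67 to −0.02, limma adjusted p = 0.722), which is −1.40 relative to the median of all genes. The change in NrasG12D/+ against Nras+/+ was −1.47 (SE 0.80, 95% interval −3.29 to 0.36, adjusted p = 0.816), and between NrasG12D/G12D and NrasG12D/+ it was −0.38 (SE 0.72, adjusted p = 0.943). Within slide 1, NrasG12D/+ against Nras+/+ gave −1.97 (adjusted p = 0.562), and within slide 2, NrasG12D/G12D against the single NrasG12D/+ array there gave −1.39 (adjusted p = 0.976, the lone array being assumed to vary like the others). With the slide as a block, NrasG12D/G12D against Nras+/+ gave −3.36 (adjusted p = 0.527), a value that rests on the NrasG12D/+ arrays as the link between slides. Normexp background correction gave −0.95 for that comparison (adjusted p = 0.942). Over all the settings tried, this comparison's adjusted p lay between 0.527 and 0.9997.

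**Figure D3:**
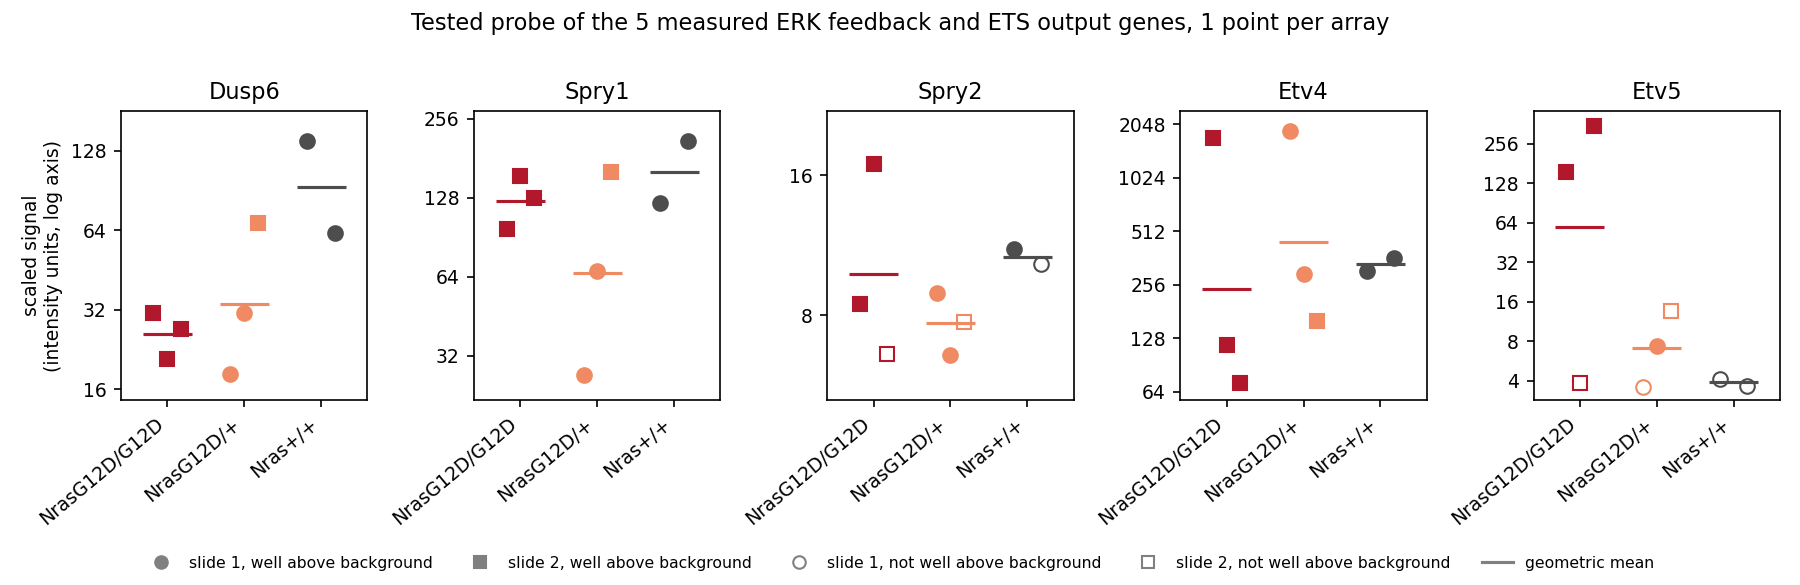
Scaled signal (log axis, intensity units) of the tested probe of Dusp6, Spry1, Spry2, Etv4 and Etv5, with 1 point per array in the 3 genotypes, circles for slide 1, squares for slide 2, open symbols where the probe was not well above background, and a bar at the geometric mean. The NrasG12D/G12D points of Dusp6 (20.9 to 31.0) lie below both Nras+/+ points. In Etv4, replicate 1 of each mutant genotype stands far above the others of its genotype. In Etv5, NrasG12D/G12D replicates 1 and 3 stand far above replicate 2.

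Of the Sprouty genes, Spry1 alone was well above background on all 8 arrays. Spry1, an inhibitor of receptor tyrosine kinase signalling to Ras, had scaled signals of 97.8, 155 and 128 on the NrasG12D/G12D arrays, 27.1, 67.3 and 161 on the NrasG12D/+ arrays, and 122 and 211 on the Nras+/+ arrays. The NrasG12D/G12D and Nras+/+ values overlapped, and NrasG12D/+ replicates 1 and 2 were the lowest of the 8 arrays. The change was −0.37 in NrasG12D/G12D against Nras+/+ (SE 0.87, 95% interval −2.34 to 1.61, adjusted p = 0.908) and −1.27 in NrasG12D/+ against Nras+/+ (SE 0.87, 95% interval −3.25 to 0.70, adjusted p = 0.816). Between NrasG12D/G12D and NrasG12D/+ it was 0.91 (SE 0.78, adjusted p = 0.861). That last value turned to −0.37 within slide 2 (adjusted p = 0.978), and within slide 1 NrasG12D/+ against Nras+/+ gave −1.91 (adjusted p = 0.562). Slide 2 holds a single NrasG12D/+ array, so its value sets 3 arrays against 1.

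Spry2, a second Sprouty inhibitor, was near background: its brighter probe was well above it on 2 of 3 NrasG12D/G12D, 2 of 3 NrasG12D/+ and 1 of 2 Nras+/+ arrays. Scaled signals were 8.45, 16.9 and 6.60 in NrasG12D/G12D, 8.92, 6.57 and 7.74 in NrasG12D/+, and 11.1 and 10.3 in Nras+/+. NrasG12D/+ lay below Nras+/+ without overlap, a pattern that 2394 of all genes tested (16%) showed, and NrasG12D/G12D replicate 2 was the highest of the 8. The change was −0.12 in NrasG12D/G12D against Nras+/+ (SE 0.71, 95% interval −1.73 to 1.48, adjusted p = 0.964) and −0.48 in NrasG12D/+ against Nras+/+ (SE 0.71, 95% interval −2.08 to 1.13, adjusted p = 0.871). Its second probe was well above background on no array.

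Spred1, which recruits neurofibromin to the membrane to switch Ras off, was not tested. Each of its 3 probes was well above background on 1 array only: probes 1 and 2 on NrasG12D/+ replicate 1, with scaled signals of 7.44 and 9.85, and probe 3 on NrasG12D/G12D replicate 2, with 26.2. Probes 1 and 2 thus picked out the same array, and probe 3 another.

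Etv4 differed more between arrays within each mutant genotype than between the genotype means, while the Nras+/+ arrays were close to each other. Its scaled signal was 1704, 118 and 71.7 on the NrasG12D/G12D arrays, 1866, 294 and 161 on the NrasG12D/+ arrays, and 306 and 363 on the Nras+/+ arrays. Replicate 1 of each mutant genotype stood above both Nras+/+ arrays, and the other mutant arrays stood below both. The SD around the group means was 1.95 on the log2 scale, the 91.9th percentile among 5849 genes well above background on all arrays, whose median was 0.92. The change was −0.46 in NrasG12D/G12D against Nras+/+ (SE 1.48, 95% interval −3.81 to 2.90, adjusted p = 0.939) and 0.42 in NrasG12D/+ against Nras+/+ (SE 1.48, 95% interval −2.93 to 3.77, adjusted p = 0.947). Without NrasG12D/+ replicate 1 NrasG12D/+ against Nras+/+ gave −0.62, and with the slide as a block NrasG12D/G12D against Nras+/+ gave 1.75.

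Summed signals of markers of other cell types differed between arrays, including those with high Etv4 and others. Each sum adds 1 probe per marker on the linear scale, so a single bright probe can make up most of it. On NrasG12D/+ replicate 1 the summed scaled signal of the 9 neutrophil markers was 45650, against 121 to 2125 on the other 7 arrays. There 5 of the 9 were well above background, against 2 to 4 on the other arrays. S100a8, Camp and Lcn2 were well above background on no array. On NrasG12D/G12D replicate 1 the neutrophil sum was 121, the lowest of the 8. There the sum of 10 endothelial and stromal markers was 2325, against 101 to 954 on the other arrays. Of these 10 markers 5 were well above background there, against 6 on both Nras+/+ arrays. The summed signal of 9 T and NK cell markers was 1357 on NrasG12D/+ replicate 1 and 1392 on NrasG12D/G12D replicate 1, against 179 to 2310 on the other arrays. The array with the highest T and NK cell sum (2310) and the second highest neutrophil sum (2125) was NrasG12D/G12D replicate 2, where Etv4 was 118. On that array 2 of the 9 neutrophil markers were well above background, the fewest of the 8 arrays. The part of these cells in the Etv4 signal was not tested.

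Etv5 had the largest mean difference of the 5 genes, and it came from 2 arrays. Scaled signals of probe 1, the one tested, were 156, 3.84 and 348 on the NrasG12D/G12D arrays, 3.57, 7.38 and 13.6 on the NrasG12D/+ arrays, and 4.14 and 3.68 on the Nras+/+ arrays. NrasG12D/G12D replicates 1 and 3 were well above background and the highest of the 8, whereas NrasG12D/G12D replicate 2 lay between the Nras+/+ arrays. Of the other arrays only NrasG12D/+ replicate 2 was well above background. Etv5 thus met the filter for testing, at least 2 arrays well above background, only with the NrasG12D/G12D arrays counted. Its changes, intervals and p-values describe these arrays and are no support for a difference.

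The change of Etv5 in NrasG12D/G12D against Nras+/+ was 3.93 (SE 1.69, 95% interval 0.10 to 7.75, adjusted p = 0.722), with log2 means of 5.89 ± 3.47 (SD, n = 3) in NrasG12D/G12D and 1.96 ± 0.12 (SD, n = 2) in Nras+/+. Because the probe was not above background in Nras+/+, a floor was used for each array there. It was the dimmest signal flagged well above background on that array, or the Etv5 signal where that was higher. The NrasG12D/G12D mean was 5.28-fold above this floor. This bounds the Nras+/+ side of the means only, at the scaling used. It leaves out the spread between arrays, for which the interval begins at 0.10. The NrasG12D/G12D mean includes replicate 2, which was not well above background. Normexp background correction gave a smaller log2 change of 1.36, so the bound does not hold for that setting. The change was 0.86 in NrasG12D/+ against Nras+/+ (SE 1.69, adjusted p = 0.903) and 3.06 between NrasG12D/G12D and NrasG12D/+ (SE 1.51, adjusted p = 0.802). Without NrasG12D/G12D replicate 3 the change against Nras+/+ was 2.65, and without replicate 2 it was 5.90. The second Etv5 probe read 1.59, 3.17 and 24.2 in NrasG12D/G12D, 1.23, 1.247 and 3.20 in NrasG12D/+, and 4.57 and 5.22 in Nras+/+. It was well above background on NrasG12D/G12D replicate 3 only, so both probes were bright on that array and disagreed on NrasG12D/G12D replicate 1. On NrasG12D/G12D replicate 3 the summed signal of 8 monocyte and macrophage markers was 849, against 119 to 350 on the other arrays. Only 3 of the 8 were well above background there, as on each NrasG12D/G12D array. That was fewer than the 5 to 6 on NrasG12D/+ and 4 to 5 on Nras+/+ arrays, and Cd68 was so on no array. On NrasG12D/G12D replicate 1, also bright for Etv5, this sum was 197, within the range of the others. Their part in the Etv5 signal was not tested.

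**Figure D4:**
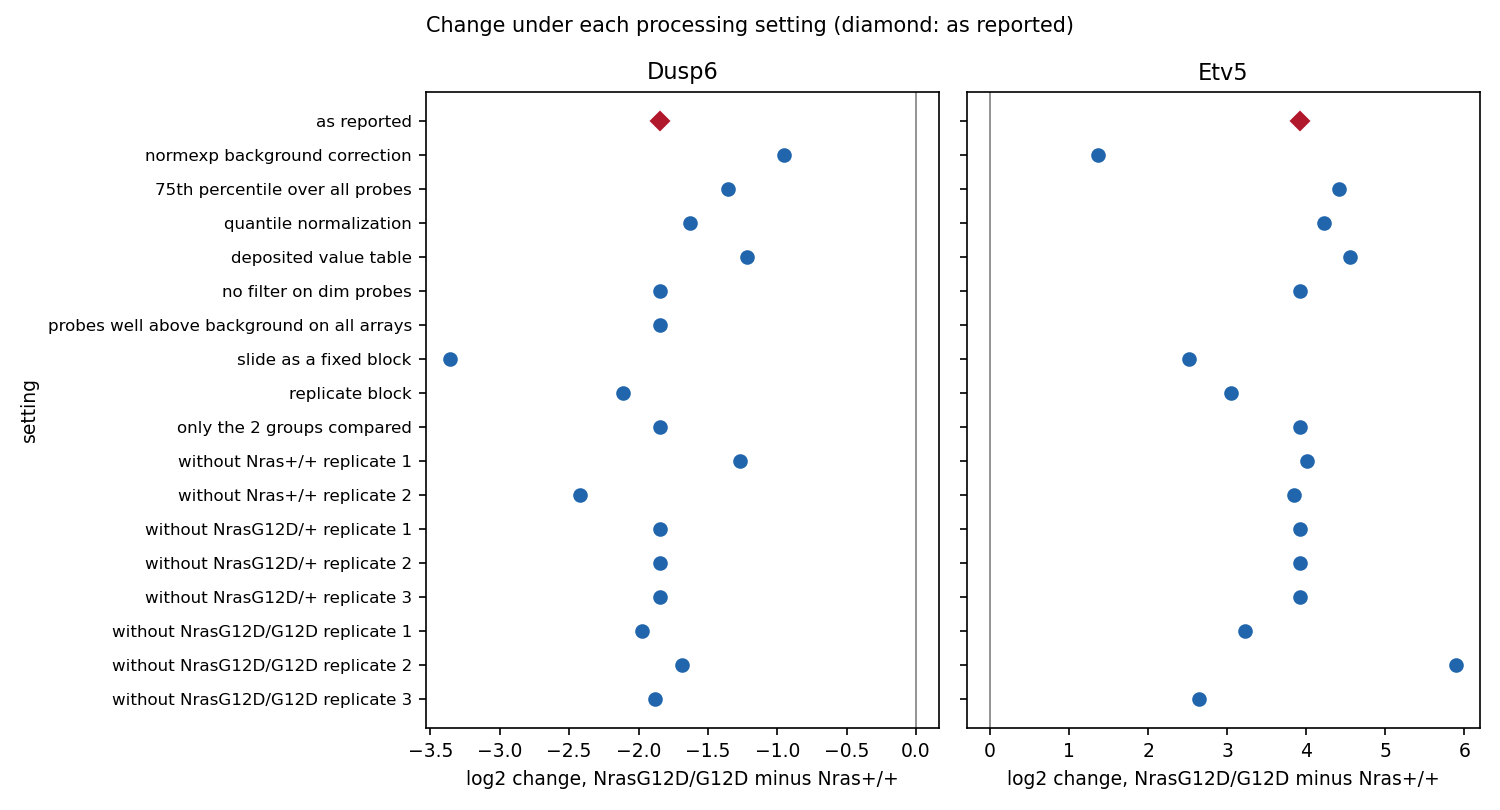
Log2 change of Dusp6 and Etv5 in NrasG12D/G12D against Nras+/+ under each processing setting (rows), with a diamond for the value as reported. Dusp6 stays between −3.36 and −0.95 and Etv5 between 1.36 and 5.90; Etv5 has no point where probes had to be well above background on all arrays.

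Likeness to Dusp6 was measured over the arrays. The measure was the mean absolute log2 difference over the 8 arrays after each gene was set to its own mean. It was taken for 5646 other genes with a tested probe well above background, and no value set missing, on all 8 arrays. Those closest to Dusp6 were Tnip1 (0.26), Cip2a (0.27) and 1700001J04Rik (0.27), beside a median of 0.97 over all these genes. Spry1 ranked 1429 with 0.72 and Etv4 ranked 5028 with 1.63.

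Other genes of the pathway passed the threshold in no comparison either. Of 15 further ERK feedback regulators 9 were tested, of 23 further ERK output genes 13, of 21 genes of the Ras to ERK cascade 13, and of 18 further ETS factors 12. In NrasG12D/G12D against Nras+/+ their median log2 changes were −0.69, 0.32, −0.51 and 0.00, beside −0.44 over all genes. Dusp1, a nuclear phosphatase of several MAP kinases, changed by −0.84 (SE 0.79, adjusted p = 0.780) in this comparison, and Dusp2, another nuclear phosphatase, by −0.99 (SE 0.88, adjusted p = 0.767). Egr1, an immediate early transcription factor, was well above background on 2 of 8 arrays, and Phlda1 on none.

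Over the 4 lists, 3 of 47 genes tested (6.38%) had an unadjusted p under 0.05 in NrasG12D/G12D against Nras+/+, beside 6.54% of all genes. Of the 47, 19 had a higher and 28 a lower mean, where 64.4% of all genes tested had a lower mean. Higher and lower means numbered 2 and 7 among the feedback regulators and 9 and 4 among the output genes. They numbered 2 and 11 in the cascade and 6 and 6 among the ETS factors. The 3 genes of unadjusted p under 0.05 were Ccnd1 and Nras, named whatever their values, and Ptpn11, named for its low p. Each had a lower mean in NrasG12D/G12D. Ccnd1, the gene of cyclin D1, a G1 regulator that ERK induces, had scaled signals of 77.5, 42.6 and 114 in NrasG12D/G12D, 208, 180 and 693 in NrasG12D/+, and 360 and 977 in Nras+/+. All 3 NrasG12D/G12D arrays lay below the other 5, as they did for 739 of all genes tested (4.94%), and the change against Nras+/+ was −3.04 (SE 0.90, adjusted p = 0.722). It was −2.18 with normexp background correction. Ptpn11, the phosphatase SHP2 that acts upstream of Ras, had 3 probes, and only the tested probe is reported here. It read 9.57, 30.5 and 18.1 in NrasG12D/G12D, 89.8, 78.1 and 122 in NrasG12D/+, and 92.2 and 339 in Nras+/+. The NrasG12D/G12D arrays were again the lowest 3 for this probe, with a change of −3.35 (SE 0.85, adjusted p = 0.715) against Nras+/+. This was −1.62 with normexp background correction and −4.29 to −2.41 with 1 array left out.

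The Nras probe cannot be taken to separate normal from mutant transcript and so does not check the genotype. It read 8.38, 10.9 and 11.1 in NrasG12D/G12D, where it was not well above background, 12.3, 19.6 and 28.4 in NrasG12D/+, and 28.2 and 42.7 in Nras+/+. The change in NrasG12D/G12D against Nras+/+ was −1.79 (SE 0.70, 95% interval −3.38 to −0.20, adjusted p = 0.722). With the floor described for Etv5 set on the NrasG12D/G12D arrays, the Nras+/+ mean was 3.11-fold above it at the scaling used. This bounds the NrasG12D/G12D side of the means only and leaves out the spread between arrays, for which the interval ends at −0.20. The Nras probe met the filter for testing only through the NrasG12D/+ and Nras+/+ arrays. Its change, interval and p-value describe the arrays measured and are no support for a difference. The log2 change was smaller with the value table (−1.16) and with normexp background correction (−0.55), so the bound does not hold for those settings. The other 2 Nras probes were well above background on no array.

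The promoters of the genes were searched for 2 motifs chosen after the array values had been seen, CCGGAA, a core bound by ETS factors, and TGANTCA, a site of AP-1. The search covered both strands of the 250 bases before and 50 bases after the start site in RefSeq (GRCm38.p6), for 8 promoters of Dusp5, Dusp6, Spry1, Spry2, Spred1, Spred2 and Etv5, and the 2 motifs do not overlap. CCGGAA was found in 1 of the 8, that of Spry2, against 14.9% of 32851 promoters in all, and TGANTCA in 0 of the 8, against 7.81%. These letters alone say nothing of whether a factor binds.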

How the data were processed

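Per the file headers, the deposited scanner files are output of Agilent Feature Extraction 10.5.1.1; the processed signal is an intensity on a linear scale, background-subtracted and detrended but not scaled between arrays, and the mean and background signals are deposited as uncorrected intensity. The deposited value table holds a ratio, each processed signal over its array's median (1 in every column). Flags well above background are, per the file headers, a score of 0 or 1.

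Outlier-flagged spots (120 to 464 per array) were set missing, spots of a probe averaged, and log2 signals scaled to each array's 75th percentile over the 6576 probes that every one of the 8 arrays flagged so. A gene was tested on its brightest probe well above background on at least 2 arrays. A pair of details was settled after the files and the members' signals had been seen, to approach the filtering of an earlier analysis of these data, and ahead of any test: a probe counted as well above background where the majority of its spots were flagged so, and at least 2 values per genotype were required. Other readings of these rules were tried for their counts of probes and genes only.

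limma 3.58.1 in R 4.3.3 (lmFit, eBayes, two-sided) fitted all 8 arrays, with Benjamini-Hochberg adjustment over 14959 genes and a threshold of 0.05, and was tested on simulated data. Precision is limited by there being 8 arrays, and the median SE was 0.96 against Nras+/+ for either mutant genotype and 0.86 between these. Python 3.11.15 made the tables and matplotlib 3.10.9 the figures. Besides the members, named genes were Nras, Phlda1, Ccnd1, Egr1, Dusp1 and Dusp2, up to 3 per list and comparison of lowest unadjusted p under 0.05, and the 3 genes most like Dusp6. Some marker genes are not reported here, though sums and counts include them. The members and lists were chosen with earlier results of these data known. Replicate numbers were not used to pair the arrays in the reported fit. Correlations of same-numbered deviations from the group means were −0.10 to 0.09. With 2 or 3 arrays per genotype such deviations are tied to each other, so these correlations cannot settle whether arrays were paired. Alternatives were the background correction, the scaling, the value table, the probe filter, each probe by itself, slide, replicate number, the 2 groups alone and each array left out.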

Additional observations from a re-analysis of the deposited data

How the results depend on the processing

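No member passed the threshold under any setting. The direction was kept in 231 alternative values for members and turned in 28, and was kept in 299 and turned in 10 for the other named genes. The kept counts include values that could not change. Leaving out an array of the genotype not compared, fitting the 2 groups alone, or a probe filter that keeps the same probe returns the reported change. These counts are therefore no measure of how stable the directions are. For NrasG12D/G12D against Nras+/+, the direction turned for Spry1 with the 75th percentile over all probes (0.12) and the value table (0.26), for Spry2 with these (0.37 and 0.51), quantile normalization (0.45) and the replicate block (0.0155), and for Etv4 with the first 2 (0.0351 and 0.18), the slide block (1.75) and the replicate block (0.35). For NrasG12D/+ against Nras+/+, it turned for Etv4 with quantile normalization (−0.036) and for Etv5 with normexp (−0.30) and the replicate block (−0.0089). Between NrasG12D/G12D and NrasG12D/+, it turned for Dusp6 with normexp (0.0381) and the value table (0.0695), for Spry1 and Etv4 with the slide block or within slide 2 (−0.37 and 0.60), for Egr1 with normexp (0.17) and for Dusp1 with normexp (0.14), the percentile over all probes (0.11), quantile normalization (0.11) and the value table (0.23). The cause was not tested.

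Leaving out 1 array also turned values. In NrasG12D/+ against Nras+/+, leave-one-out values ran over −0.62 to 1.15 for Etv4, −4.05 to 0.42 for Egr1, −0.83 to 0.48 for Dusp2 and −1.84 to 0.0429 for Ptpn11. In NrasG12D/G12D against Nras+/+ they ran over −0.76 to 0.0286 for Spry1, −0.52 to 0.16 for Spry2 and −1.86 to 0.43 for Etv4 (0.07 without NrasG12D/G12D replicate 2). Between the mutant genotypes they ran over −0.82 to 0.13 for Dusp6, −0.041 to 0.64 for Spry2, −2.28 to 0.16 for Etv4 (0.01 without NrasG12D/G12D replicate 3), −1.17 to 0.11 for Egr1 and −0.62 to 0.36 for Dusp1.

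Over all genes, 1 was called in NrasG12D/+ against Nras+/+ with the percentile over all probes, quantile normalization, the value table or no filter, and 1 in NrasG12D/G12D against Nras+/+ with quantile normalization, no filter, the slide block or the 2 groups alone, against 0 as reported. The slide block called 4 between the mutant genotypes. Leaving out 1 array called 0 to 10 genes in NrasG12D/+ against Nras+/+, 0 to 9 in NrasG12D/G12D against Nras+/+, and 0 to 2 in NrasG12D/G12D against NrasG12D/+. The 10 and the 9 came without Nras+/+ replicate 2. The replicate block called 0 genes in each comparison, and Dusp6 in NrasG12D/G12D against Nras+/+ was then −2.11 (adjusted p = 0.637). The median of all genes in NrasG12D/G12D against Nras+/+ was −0.44 as scaled, 0.05 with the percentile over all probes and 0.19 with the value table. Among genes with unadjusted p under 0.05 in that comparison, 79.9% were lower as scaled, against 43.1% and 34.3% with those scalings. NrasG12D/G12D and Nras+/+ have no within-slide value.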
